A study of Homo sapiens with 28 samples.

Results

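AP-1 is a dimer of basic leucine zipper proteins from the JUN, FOS and ATF families that binds a short DNA element in many enhancers and promoters. The genes for several of its subunits belong to the immediate early genes, which cells switch on within minutes of a growth signal or stress without new protein synthesis, and their mRNAs are short-lived. In m6A maps of mRNA, peaks are known to gather around stop codons.

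The 10 genes described here were *JUN*, *JUNB* and *JUND* (the JUN subunits), *FOS*, *FOSB*, *FOSL1* and *FOSL2* (the FOS subunits), *ATF3* (a stress-induced bZIP protein that can pair with JUN proteins), *EGR1* (an immediate early zinc finger factor) and *IER2* (an immediate early nuclear protein). They were taken by name from GENCODE 44 on hg38, out of 20033 protein-coding genes. The data are lists of N6-methyladenosine (m6A) peaks on chromatin-associated RNA (caRNA), obtained by immunoprecipitation with an m6A antibody followed by sequencing (MeRIP-seq), with 1 list for each of 14 libraries. HepG2 (a hepatoma line) and K562 (a chronic myelogenous leukaemia line) were each profiled as unmodified wild-type cells, as the groups HepG2 WT and K562 WT (n = 2 libraries each). K562 cells were also profiled with a non-targeting hairpin (K562 Control, n = 2) or with a hairpin against the RNA-binding protein RBFOX2 (K562 RBFOX2 KD, n = 2). NB4, an acute promyelocytic leukaemia line, was profiled with the same kinds of hairpin (NB4 Control and NB4 RBFOX2 KD, n = 3 each). Per the methods of the study, hairpins were delivered by lentivirus, with a separate packaging protocol for K562 and for NB4, and transduced cells of both lines were selected with puromycin, a step that the unmodified WT groups lack. Which of the study's RBFOX2 hairpins was used in a library is not given in the labels. The methods speak of biological replicates without describing, for these libraries, how cultures were kept apart, so p-values below measure the spread between libraries, part of which may be technical.

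The lists held 22700 to 44088 peaks on chromosomes 1 to 22, X and Y, and the depth recovered from them was 10.8 to 32.9 effective mega-reads (M), the number of reads that entered the peak calling. For HepG2 WT 1 and 2 and NB4 Control 3, where rescaled reads were assumed, it is the number after rescaling. The HepG2 WT libraries were the deepest and yet had the shortest lists, and NB4 Control 1 was the shallowest library. Genes typical of K562 and of NB4 followed the labels, and those of HepG2 did so less clearly. These genes were chosen after the data had been seen, so they are no independent check of the labels. Of 6 K562 genes 5 or 6 were listed in each K562 library, against none in HepG2 and at most 1 in NB4, of 6 NB4 genes 5 were listed in each NB4 library against 1 or 2 elsewhere, and of 6 HepG2 genes 4 were listed in HepG2 WT 2 but only 1 in HepG2 WT 1, as in both K562 WT libraries, with none in the 10 other libraries. *RBFOX2* itself had a peak in each of the 12 K562 and NB4 libraries, and peak lists do not measure how far it was depleted.

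A peak belonged to a gene when it overlapped the gene or the 1000 bases upstream of it. Of 496678 peaks, 340 lay at the 10 genes, 278 of them on the gene's own strand and 62 on the opposite strand. For each library the gene percentile is the highest percentile that a peak of the gene on its own strand reached when all peaks of that library were ranked by −log10 q, so that 100 is the top of the list and 0 means that no peak was listed. It ranks the evidence for a peak, which grows with the abundance of the RNA as well as with its enrichment, and it is neither a methylation level nor an expression level. The fold, the other value used, is the enrichment of the summit over the local background that the peak caller gave.

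*JUN*, *JUND*, *EGR1* and *IER2* ranked highest of the 10 genes, and *FOS* and *FOSB* lowest by their median. All 10 genes were listed in at least 4 libraries, and 7 of them (*JUN*, *JUNB*, *JUND*, *FOSL1*, *FOSL2*, *EGR1* and *IER2*) in 14 of 14, against 40.6% of the 12651 protein-coding genes with a peak in any library. The median percentile was at least 90 for *JUN*, *JUND*, *EGR1* and *IER2*, which 16.7% of those genes reached. Medians over the 14 libraries ran from 0 for *FOSB* and 17.2 for *FOS* to 97.8 for *JUN*. Replicates of a group could also lie far apart, as for *ATF3* in NB4 Control, at 0, 83.4 and 67.4.

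**Figure D1:**
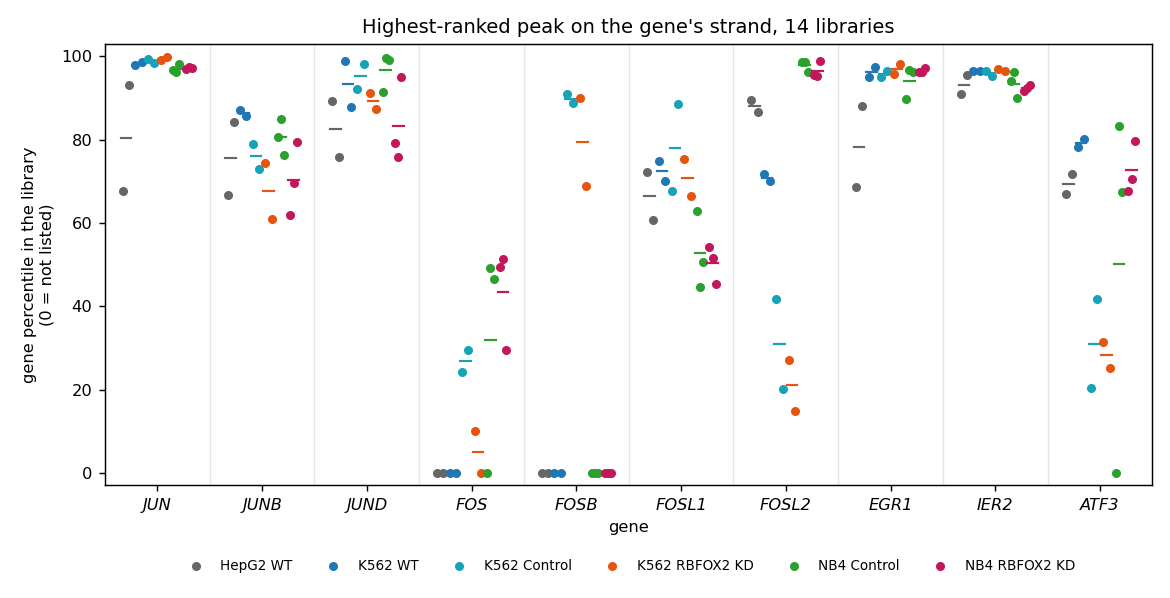
Gene percentile (y axis, 0 to 100, 0 where no peak was listed) of the 10 genes (x axis) in each of the 14 libraries, as points coloured by group, with a bar at the group mean. *JUN*, *EGR1* and *IER2* sit near the top in K562 and NB4, *FOSB* is above 0 only in the 4 K562 hairpin libraries, and *FOSL2* is high in NB4 and HepG2 and low in the K562 hairpin libraries.

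*JUN* (ENSG00000177606.9, chromosome 1, 58776845 to 58784048, minus strand) encodes the founding AP-1 subunit, c-Jun, from a single exon. Its percentile was 67.7 and 93.1 in the HepG2 WT libraries, 98.1 and 98.6 in K562 WT, 99.4 and 98.4 in K562 Control, and 99.2 and 99.8 in K562 RBFOX2 KD. The NB4 values were 96.7, 96.3 and 98.2 in Control and 97.1, 97.5 and 97.2 in RBFOX2 KD. Every K562 library thus lay above both HepG2 libraries, and in K562 RBFOX2 KD 2 the *JUN* peak ranked 70 of 35619.

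The *JUN* summit with the closest agreement lay at the end of the coding sequence. In 14 of 14 libraries a summit fell 20 to 26 bases before the first base of the stop codon, and all of these summits lay within 6 bases of each other. The peak around it was broad, 719 to 2348 bases wide, against median peak widths of 243 to 343 bases over whole lists. Its fold was 2.43 and 3.86 in HepG2 WT, 16.2 and 18.9 in K562 WT, 23.5 and 15.4 in K562 Control, and 21.4 and 33.7 in K562 RBFOX2 KD. In NB4 the fold was 8.85, 6.59 and 8.57 in Control and 8.78, 9.01 and 8.95 in RBFOX2 KD. The 6 K562 libraries had the 6 highest folds, and HepG2 the 2 lowest. Reads at the summit were less far apart than the folds. The summit pileup per M effective reads was 9.23 and 14.5 in HepG2 and 18.2 to 47.1 in K562, whereas the local background that divides it was 3.74 to 3.78 in HepG2 and 0.938 to 1.95 in K562.

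A further summit in the 5′ UTR of *JUN*, about 288 bases from the transcript start, was listed in both HepG2 libraries and in the 6 NB4 libraries, and in none of the 6 K562 libraries, where a broad peak covered the same position. The peaks of this 5′ summit were 238 to 376 bases wide. In HepG2 this 5′ summit had the higher fold of the pair, 2.82 and 5.73. A summit close to the start codon, about 957 bases from the transcript start, appeared in 5 libraries, 4 of them from NB4.

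*EGR1* (ENSG00000120738.8, chromosome 5, 138465479 to 138469303, plus strand), which encodes a zinc finger factor induced together with *FOS*, resembled *JUN*. Its percentile was 68.7 and 88.0 in HepG2 WT, 94.98 and 97.4 in K562 WT, 94.98 and 96.5 in K562 Control, and 95.8 and 98.2 in K562 RBFOX2 KD. In NB4 it was 89.8, 96.6 and 96.2 in Control and 96.4, 96.3 and 97.2 in RBFOX2 KD. As for *JUN*, both HepG2 libraries lay below every other library. A summit at the stop codon was listed in 14 of 14 libraries.

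The position of the *EGR1* summit differed between the lines. In the 8 HepG2 and K562 libraries it lay 2 to 5 bases past the first base of the stop codon, and in the 6 NB4 libraries it lay 21 to 28 bases before it. The ranges did not overlap, and the hairpin made no visible difference, since K562 Control and K562 RBFOX2 KD lay at 2 to 5 bases with the WT libraries. No test was made, because the shift was noticed in these data. Besides this summit, a 5′ UTR summit about 172 bases from the start was listed in 10 libraries, and between the ends of the gene a coding summit 1107 bases before the stop codon was listed in 4 libraries, all from NB4.

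**Figure D2:**
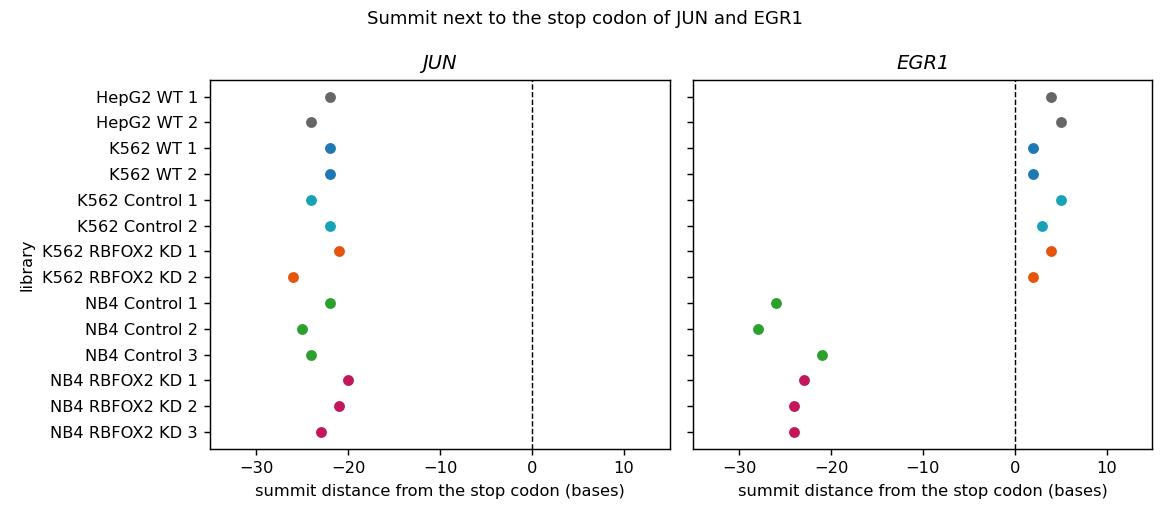
Distance of the summit next to the stop codon from the first base of that codon (x axis, bases, negative values before it) for *JUN* (left) and *EGR1* (right) in each library (y axis), coloured by group. *JUN* summits lie at -26 to -20 in all lines, while *EGR1* summits lie at 2 to 5 in HepG2 and K562 and at -28 to -21 in NB4.

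The sequence at recurring summits is given here because these are the positions where libraries coincide. The first 6 summits lie within 200 bases of the stop codon, and the *JUND* coding summit (6 libraries) and the *FOS* 5′ UTR summit (5 libraries, all from NB4) lie farther from it. For each summit the nearest GGAC followed by A, C or U within 75 bases was taken, or, where there was none, the nearest match to DRACH (A, G or U, then A or G, then AC, then A, C or U), the usual context of m6A. Capitals mark the 5 bases of the match, in which the A ahead of the C could carry the mark. The 25-base windows were read from hg38, are written 5′ to 3′ on the gene's strand, and have T for U.
JUN, end of the coding sequence, minus strand, chr1:58782071-58782095: cagcagttgcAAACAttttgaagag
EGR1, end of the coding sequence, plus strand, chr5:138468052-138468076: ttttctcccaGGACAattgaaattt
ATF3, end of the coding sequence, plus strand, chr1:212619481-212619505: cagaatgggaGGACTccagaagatg
FOSL2, 3′ UTR, plus strand, chr2:28412573-28412597: tggctctgggGGACCcaggtgggac
FOSB, 3′ UTR, plus strand, chr19:45473023-45473047: cacacaaaacAAACAaacacatggg
IER2, 3′ UTR, plus strand, chr19:13153849-13153873: ggccttctgaGGACCccgagcggcg
JUND, coding sequence, minus strand, chr19:18280682-18280706: ccatcgacatGGACAcgcaggagcg
FOS, 5′ UTR, plus strand, chr14:75278962-75278986: cggctttgccTAACCgccacgatga

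Distances were taken from the median summit over libraries, so they can differ in size and sign in single libraries. The A of the match lay 16 bases from that summit in *JUN*, -17 in *EGR1*, -37 in *ATF3*, 7 in *FOSL2*, 0 in *FOSB* and -62 in *IER2*, negative values being upstream. In *EGR1* the A was at -15 bases from the stop codon, upstream of the HepG2 and K562 summits but downstream of the NB4 summits. In *JUND* it lay 11 bases and in *FOS* 12 bases downstream. The *JUN*, *FOSB* and *FOS* summits had no GGAC followed by A, C or U within 75 bases, although those of *JUN* and *FOSB* reached folds of 33.7 and 26.4. Over the 42 summit positions on the gene's strand that recurred in 2 or more libraries, GGACU lay within 75 bases of 9 (21.4%), against 25.1% of all 496678 summits, and DRACH within 75 bases of 39 (92.9%), against 96.4%. AGAUG, a motif the study ties to RBFOX2, was near 6 (14.3%, against 22.8% of all summits), and UGCAUG, the canonical RBFOX2 motif, near 1 (2.38%, against 3.61%). The first pair of shares lay close to those of the whole lists, and the counts behind the others are small. No test was made.

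In HepG2 and K562 the highest-ranked summits of the 10 genes were often close to the stop codon, and in most NB4 libraries less often. Of the 278 peaks on the gene's strand, 105 had their summit in coding sequence, 66 in the 3′ UTR, 63 in the 5′ UTR, 39 in an intron, 3 in the stop codon and 2 downstream of the canonical transcript. The highest-ranked summit of a gene lay within 200 bases of its stop codon for 22.2% to 71.4% of the listed genes in a library, against 18.1% to 23.1% of all genes listed in the same libraries. It did so for 4 to 7 of the 8 to 10 listed genes in HepG2 and K562, and for 2 or 3 of 9 in 5 of the 6 NB4 libraries. NB4 Control 1 was the exception in NB4, with 5 of 7. The shares of all genes were not matched for gene structure. *JUN*, *JUNB* and *JUND* have a single exon, whereas the highest-ranked summit of 21.6% to 29.9% of all listed genes lay in an intron. How far gene structure accounts for the difference in shares was not tested. The stop codon itself lay under a peak in 14 libraries for *JUN*, *JUNB*, *EGR1* and *IER2*, in 10 for *FOSL2* and *ATF3*, in 9 for *JUND*, in 4 for *FOSB* and in 3 for *FOS* and *FOSL1*.

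**Figure D3:**
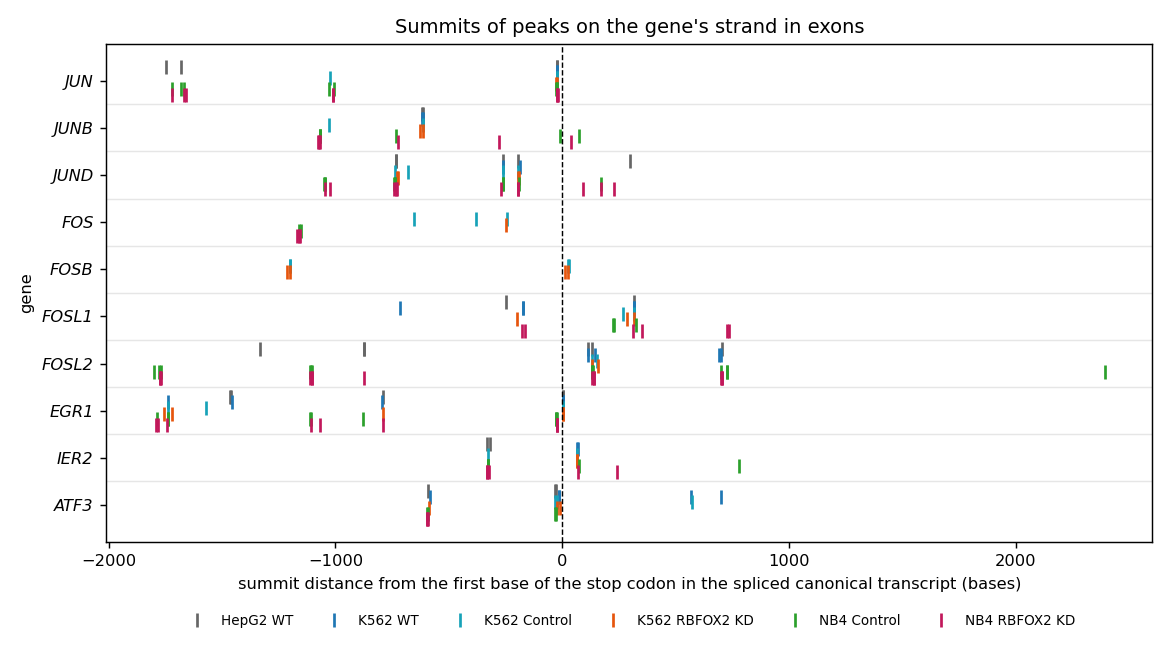
Distance of each exonic summit from the first base of the stop codon (x axis, bases along the spliced canonical transcript) for the 10 genes (y axis), 1 tick per peak, coloured by group and set at a slightly different height for each group. *JUN*, *EGR1*, *FOSL2* and *ATF3* show a column of ticks within 200 bases of the stop codon in most groups, whereas *FOS* has its NB4 ticks far upstream, ahead of the coding sequence.

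*IER2* (ENSG00000160888.7, chromosome 19, 13150411 to 13154911, plus strand) had the narrowest range of all, with percentiles between 90.1 and 96.9 and a median of 95.4 in the 14 libraries. Its percentile was 90.9 and 95.5 in HepG2 WT, 96.6 in both K562 WT libraries, 96.6 and 95.3 in K562 Control, and 96.9 and 96.4 in K562 RBFOX2 KD. NB4 libraries had 94.0, 96.2 and 90.1 in Control and 91.8, 92.4 and 93.3 in RBFOX2 KD. The rank was stable while the summit was not. A 3′ UTR summit 67 bases past the stop codon was listed in 7 libraries, 5 of them from K562, and a coding summit 328 bases before the stop codon in 9 libraries, 8 of them from HepG2 and NB4. A summit in intron 1 was listed in 13 libraries, with folds of 1.92 to 4.57 in HepG2 and NB4 and of 6.78 to 21.9 in the 5 K562 libraries that had it.

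*JUND* (ENSG00000130522.6, chromosome 19, 18279694 to 18281622, minus strand) is the JUN gene with the steadiest expression in most cells. Its percentile was 89.4 and 75.9 in HepG2 WT, 99.0 and 87.9 in K562 WT, 92.3 and 98.3 in K562 Control, and 91.2 and 87.4 in K562 RBFOX2 KD. The values in NB4 were 91.4, 99.5 and 99.2 in Control and 79.3, 75.9 and 94.99 in RBFOX2 KD. Replicates of a group lay far apart, and the place of the summit moved with the rank. Each library had 1 of a pair of neighbouring coding summits, either 262 bases before the stop codon (6 libraries, folds of 3.93 to 33.8) or 194 bases before it (8 libraries, folds of 2.13 to 13.9). In each of the 5 groups that held both kinds of library, those with the summit at 262 bases had the higher percentile. A coding summit nearer the start, 735 bases before the stop codon, was listed in 12 libraries, with folds of 3.43 to 9.30.

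*JUNB* (ENSG00000171223.6, chromosome 19, 12791486 to 12793315, plus strand), whose product often acts against c-Jun at AP-1 targets, ranked lower. Its percentile was 66.8 and 84.3 in HepG2 WT, 87.1 and 85.6 in K562 WT, 79.0 and 73.1 in K562 Control, and 74.3 and 60.9 in K562 RBFOX2 KD. In NB4 it was 80.6, 84.9 and 76.4 in Control and 61.9, 69.6 and 79.6 in RBFOX2 KD. Its summits separated the lines more clearly than its rank did. A coding summit 616 bases before the stop codon was listed in both HepG2 libraries and in 5 of 6 K562 libraries and in none of NB4, and a 5′ UTR summit about 258 bases from the start was listed in 6 of 6 NB4 libraries and in 1 from K562. Both positions lay under a peak in all 14 libraries. It was 1 peak in 12 of them, and 2 separate peaks in NB4 Control 1 and NB4 RBFOX2 KD 2. *HOOK2* lies on the opposite strand across the whole gene.

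*FOSL2* (ENSG00000075426.12, chromosome 2, 28392448 to 28417317, plus strand), a FOS subunit without the strong activation domain of c-Fos, varied most between lines among the genes listed everywhere. Its percentile was 89.4 and 86.6 in HepG2 WT, 71.7 and 70.1 in K562 WT, 41.9 and 20.1 in K562 Control, and 27.1 and 14.9 in K562 RBFOX2 KD. In NB4 it was 98.7, 98.6 and 96.2 in Control and 95.5, 95.3 and 98.9 in RBFOX2 KD. NB4 lay above HepG2, HepG2 above K562 WT, and K562 WT above the K562 hairpin libraries, with no overlap at any step. A 3′ UTR summit about 132 bases past the stop codon was present in 14 of 14 libraries, with folds of 4.49 to 9.55. By itself it ranked at percentile 90.6 to 95.1 in NB4, 89.4 and 86.6 in HepG2 WT and 14.9 to 71.7 in K562. The highest-ranked NB4 peak had a further 3′ UTR summit about 703 bases past the stop codon, listed in the 6 NB4 libraries with folds of 6.65 to 18.7. The same summit was listed in HepG2 WT 1 and in both K562 WT libraries with folds of 5.06 to 5.75, and in no K562 hairpin library. Summits in the 5′ UTR, 67 and about 736 bases from the start, were listed in 6 of 6 NB4 libraries each and in no other library.

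*FOSL1* (ENSG00000175592.9, chromosome 11, 65892049 to 65900573, minus strand), which encodes Fra-1, was listed everywhere at middle ranks. Its percentile was 72.2 and 60.7 in HepG2 WT, 74.9 and 70.2 in K562 WT, 67.6 and 88.6 in K562 Control, and 75.3 and 66.4 in K562 RBFOX2 KD. NB4 libraries ranked it at 62.9, 44.6 and 50.6 in Control and 54.3, 51.6 and 45.3 in RBFOX2 KD. All 6 K562 libraries lay above all 6 NB4 libraries. A 3′ UTR summit 315 bases past the stop codon was listed in 12 libraries, with folds of at least 9.41 in the 6 K562 libraries and of 3.44 to 6.16 in NB4. A summit in intron 2 was listed in 8 libraries, namely the 6 NB4 libraries and both K562 WT libraries, and in none of the 4 K562 hairpin libraries, where the 3′ UTR summit was strongest.

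*FOSB* (ENSG00000125740.15, chromosome 19, 45467995 to 45475179, plus strand) showed the sharpest contrast. Its percentile was 91.0 and 88.8 in K562 Control and 89.96 and 68.8 in K562 RBFOX2 KD, and it was 0 in the other 10 libraries, K562 WT included. Of 10726 genes listed in any K562 library, 0.578% were listed in all 4 hairpin libraries and in no other of the 14 libraries, and 1.23% in all 4 and in neither K562 WT library. Both summits had high folds. That in the 3′ UTR, 14 to 28 bases past the first base of the stop codon, had folds of 26.4 and 19.7 in K562 Control and 24.7 and 10.5 in K562 RBFOX2 KD, and that in the 5′ UTR had folds of 15.1 and 10.0, and of 15.8 and 13.0. The local background at the 3′ UTR summit was 0.588 to 0.592 reads per M effective reads. That is about the lowest background of this strand in each list, so these folds divide by a floor. The K562 WT libraries were deeper (25.6 and 24.9 M effective reads, against 12.6 to 19.5 in the K562 hairpin libraries). A peak can be absent because the RNA is scarce or because it is not methylated, and fewer cells that make the RNA and less RNA per cell cannot be told apart in bulk samples. What the hairpin, its transduction and the puromycin selection contribute cannot be told apart either. *ERCC1* lies across the gene on the opposite strand, where no peak was listed in any library.

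*FOS* (ENSG00000170345.10, chromosome 14, 75278826 to 75282230, plus strand), the prototype immediate early gene, was listed in 8 libraries. Its percentile was 24.3 and 29.6 in K562 Control, 10.0 and 0 in K562 RBFOX2 KD, 0, 49.2 and 46.6 in NB4 Control, and 49.4, 51.4 and 29.6 in NB4 RBFOX2 KD. It was 0 in the 4 WT libraries of HepG2 and K562. The place of the peak differed by line. In NB4 there was 1 peak in each of 5 libraries, with a 5′ UTR summit 127 to 145 bases from the start and just ahead of the start codon, and folds of 4.96 to 6.84. In K562 the leading peak lay in exon 4, with summits 245 and 247 bases before the stop codon in Control 1 and RBFOX2 KD 1 and 381 bases before it in Control 2, and folds of 5.33, 4.21 and 5.13. These 3 peaks ran over the stop codon, and no NB4 peak did. NB4 Control 1, where no *FOS* peak was listed, was the shallowest library.

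*ATF3* (ENSG00000162772.18, chromosome 1, 212565334 to 212620777, plus strand) was listed in 13 libraries. Its percentile was 66.9 and 71.8 in HepG2 WT, 78.3 and 80.2 in K562 WT, 20.4 and 41.7 in K562 Control, and 31.4 and 25.2 in K562 RBFOX2 KD. In NB4 it was 0, 83.4 and 67.4 in Control and 67.6, 70.6 and 79.8 in RBFOX2 KD. The 4 K562 hairpin libraries lay below every other library in which it was listed. A summit about 23 bases before the stop codon was listed in 10 libraries, which were all 8 of HepG2 and K562 and 2 of 3 NB4 Control libraries, but in none of the 3 NB4 RBFOX2 KD libraries. A 5′ UTR summit about 125 bases from the start was listed in 8 libraries, 5 of them from NB4, with folds of 7.78 to 12.7 there.

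The comparison of RBFOX2 KD with Control asks whether depletion of RBFOX2 shifts m6A peaks on these transcripts. None of the 10 genes was separated from Control in the same direction in both lines. In K562, *JUND* (mean ± SD 95.3 ± 4.27 in the 2 Control libraries and 89.3 ± 2.66 in the 2 KD libraries) and *FOS* (27.0 ± 3.77 and 5.02 ± 7.09) had ranges that did not overlap, both lower in KD, as did 16.4% of the 9804 genes tested. None was higher without overlap, against 10.9%. In NB4, 0 of the 9 genes tested had ranges apart, against 15.3% of 9975 genes higher in KD and 6.61% lower. Over both lines the background was 1.55% higher and 0.68% lower in both.

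The largest mean change over both lines was in *ATF3*, 9.85 points, and it rests on NB4 Control 1, in which the gene was not listed, since it was -2.71 points without that library. *JUND* changed by -5.98 points in K562, by -13.3 in NB4 and by -9.65 over both lines (exact permutation test within lines, two-sided, p = 0.05, adjusted p = 0.682 over 11626 genes), with all 5 KD libraries below the Control mean of their line. *JUNB* changed by -8.41 and -10.3 points, or -9.34 points over both (exact permutation, two-sided, p = 0.0833, adjusted p = 0.682), also with all 5 KD libraries below the Control mean. Neither passed the threshold of 0.05. NB4 RBFOX2 KD 3 had the highest NB4 KD values of both genes, so leaving it out widens the changes. They were then -12.5 points for *JUND* and -11.6 for *JUNB*. No p is given for these, since the library left out was picked by its values. Without K562 RBFOX2 KD 1, the K562 KD library with the higher *JUNB* value, the change of *JUNB* was -12.7 points. It was -5.99 points without K562 RBFOX2 KD 2. Within K562 the change of *JUND* was -9.00 points without Control 1 and -2.96 without Control 2. *JUN*, *EGR1* and *IER2* changed by 0.39, 1.82 and -0.13 points over both lines, with no room to rise above 100. The median change over the 10 genes was -4.96 points, beside 0.524 over all genes tested. It was -6.58 in K562 beside -0.577, and -0.953 in NB4 beside 2.04.

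Within a line no exact permutation test could pass 0.05, since the smallest p is 0.333 for 2 libraries against 2 and 0.1 for 3 against 3, and the 120 arrangements over both lines allow 0.0167. By that test 496 genes (4.27%) had an unadjusted p under 0.05, none of the 10 among them, and 0 genes passed after adjustment. The difference between the lines in the KD change was largest for *FOS*, with -21.9 points in K562 against 11.6 points in NB4 (p = 0.0833 and adjusted p = 0.634 by a two-sided exact permutation within lines), and without NB4 Control 1 the NB4 change of *FOS* was -4.40 points. No member had p under 0.05 in this test, against 4.51% of all genes.

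**Figure D4:**
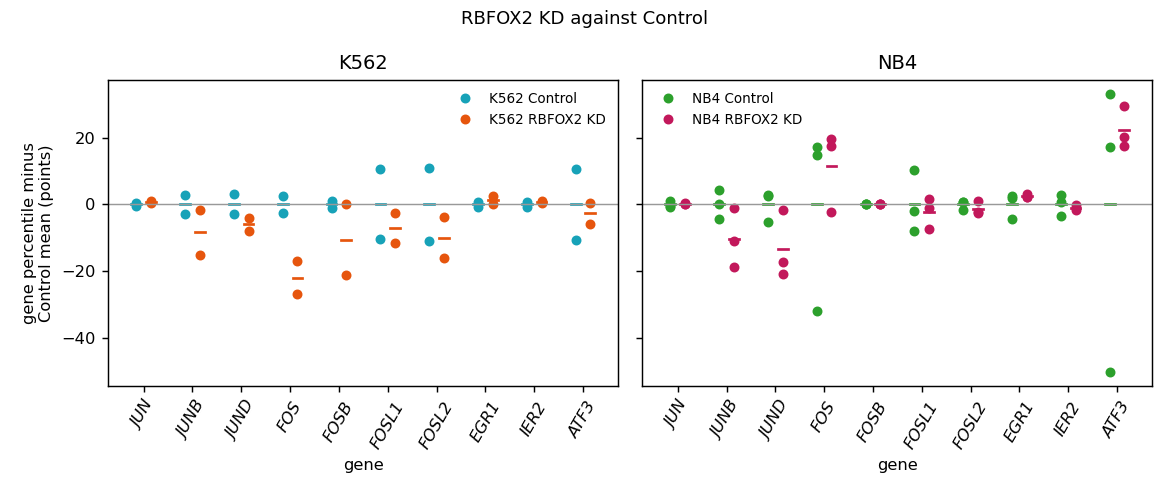
Gene percentile minus the mean of the Control libraries of the line (y axis, percentile points) for the 10 genes (x axis) in K562 (left) and NB4 (right), with 1 point per library and a bar at the group mean. In K562 both KD points lie below both Control points for *JUND* and *FOS*, and in NB4 Control and KD points overlap for every listed gene.

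The comparison of K562 WT with HepG2 WT describes unmodified cells. *JUN* (98.3 ± 0.394 against 80.4 ± 18.0, SD, n = 2 each), *JUNB* (86.3 ± 1.02 against 75.6 ± 12.4), *EGR1* (96.2 ± 1.73 against 78.4 ± 13.6), *IER2* (96.6 ± 0.0118 against 93.2 ± 3.21) and *ATF3* (79.2 ± 1.40 against 69.4 ± 3.45) were higher in K562 without overlap, as were 60.6% of the 11229 genes tested. *FOSL2* was lower without overlap (70.9 ± 1.15 against 88.0 ± 2.04), as were 19.2%, but this direction turned with the log2 fold of the highest-fold peak in place of the percentile, by which it was higher in K562 WT by 0.75. With percentages that high, 5 of the 8 genes tested is close to what all genes show. The HepG2 libraries differed from each other, so that without HepG2 WT 1 the differences were 5.19 points for *JUN*, 2.02 for *JUNB*, 8.20 for *EGR1* and 1.12 for *IER2*, and without HepG2 WT 2 they were 30.6, 19.5, 27.5 and 5.66 points. Of the members, *FOSL2* had the smallest spread beside its difference, -17.1 points, but the smallest possible p is 0.333 and the adjusted p was 0.418 (exact permutation, two-sided).

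NB4 Control and K562 Control carry the same kind of hairpin in different lines. *FOSL2* was higher in NB4, at 97.9 ± 1.42 (SD, n = 3) against 31.0 ± 15.4 (SD, n = 2), without overlap, as were 23.1% of 11243 genes. *JUN* (97.1 ± 1.01 against 98.9 ± 0.647), *FOSL1* (52.7 ± 9.30 against 78.1 ± 14.8) and *FOSB* (0 in NB4 against 89.9 ± 1.59) were lower without overlap, as were 37.9%. Without K562 Control 2 the *FOSL1* difference of -25.4 points became -14.9. The differences of 66.9 points for *FOSL2* and -89.9 points for *FOSB* had the smallest p that the design allows, 0.1 (exact permutation, two-sided, adjusted p = 0.222).

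K562 Control against K562 WT sets cells with a hairpin against cells without one. *FOSB* (89.9 ± 1.59 against 0) and *FOS* (27.0 ± 3.77 against 0) were higher in Control without overlap, as were 23.2% of 10606 genes. *FOSL2* (31.0 ± 15.4 against 70.9 ± 1.15, SD, n = 2 each), *ATF3* (31.1 ± 15.1 against 79.2 ± 1.40) and *JUNB* (76.0 ± 4.18 against 86.3 ± 1.02) were lower without overlap, as were 38.1%. For *JUNB* the direction turned with the log2 fold, which was higher in Control by 0.18. The same 3 genes were lower in all 4 K562 hairpin libraries than in both WT libraries, as were 33.5% of genes, and *FOSB* alone of the 10 was higher in all 4, as were 15.7%. Differences reached 89.9 points for *FOSB* and -48.2 points for *ATF3*, each with p = 0.333, the smallest possible, and adjusted p = 0.543 (exact permutation, two-sided).

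Genes related to the 10 were counted in the same way. Of all 20033 protein-coding genes 63.2% were listed in any library, and 40.6% of those in all 14. Of 12 other AP-1 and related bZIP genes 11 were listed in any library and 3 in all 14, of 24 other immediate early genes 21 and 9, and of 12 kinases and factors upstream of AP-1 12 and 8. Over both lines, *ATF7*, a bZIP partner of JUN proteins, was higher in KD in both lines without overlap (66.9 to 74.0 in K562 and 64.2 to 80.3 in NB4, group means), as was *MAPK14*, the p38α kinase (91.2 to 92.4 and 89.1 to 96.2). Both were named because their ranges lay apart in both lines, as in 1.55% of all genes, so no p is given for them. No gene of the other immediate early genes was separated in both lines. Against K562 WT, K562 Control was lower without overlap for 9 of 16 other immediate early genes tested and higher for 2, beside 38.1% and 23.2% of all genes. The median change was -6.80 points there, beside -1.38 over all genes. The other lists went the same way. For the other AP-1 and related bZIP genes, 6 of 9 tested were lower and 1 higher, with a median of -14.55 points. For the kinases and factors upstream of AP-1, 6 of 12 were lower and 1 higher, with a median of -5.13 points.

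Peaks on the strand opposite to a gene were listed at 8 of the 10 genes, against 32.7% of all 20033 protein-coding genes, and at neither *FOS* nor *FOSB*. These shares are not matched, since all 10 genes but only 63.2% of the 20033 were listed on their own strand. *EGR1* had the highest ranks, at percentile 63.6 and 70.1 in HepG2 WT, 12.1 and 0 in K562 WT, 81.2 and 82.2 in K562 Control, and 75.6 and 77.8 in K562 RBFOX2 KD. It was 0 in 5 of the 6 NB4 libraries and 23.6 in NB4 RBFOX2 KD 1. The K562 hairpin libraries thus lay above K562 WT on this strand, as in 10.8% of the 5300 genes with an opposite-strand peak in K562, while the sense percentile of *EGR1* was between 94.98 and 98.2 in all 6. The opposite-strand summits lay inside exon 2, about 961 bases before the stop codon and 72 to 174 bases before it, and no gene is annotated on that strand within *EGR1*. The highest folds there, 15.3 to 18.6 in the 4 hairpin libraries, exceeded the sense fold of the stop codon summit in each of these libraries (8.73 to 14.2). Reads went the other way. Over the K562 libraries the opposite-strand pileup was at most 11.7 per M effective reads, against 15.15 to 49.4 at the sense stop codon summit. The local background was 0.562 to 0.567 at the opposite-strand summits and 0.68 to 4.86 at the sense summit. The opposite-strand values were about the lowest background of that strand in each list, so the high folds there divide by a floor.

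*FOSL1* had an opposite-strand peak in the 12 K562 and NB4 libraries and in neither HepG2 library. Its summit lay in intron 1, except in K562 Control 1, where it lay opposite the 3′ UTR. Its percentile was 49.0 and 48.7 in K562 WT, 18.8 to 31.4 in the K562 hairpin libraries, 78.0, 63.5 and 55.5 in NB4 Control, and 32.7, 39.4 and 41.1 in NB4 RBFOX2 KD. The 3 NB4 Control libraries lay above the 3 KD libraries, as in 8.37% of the 3858 genes with an opposite-strand peak in these 6 libraries. No test was made, since opposite strands were outside the planned comparisons. *JUND* showed the same order in NB4, with 29.8, 53.8 and 64.8 in Control and 12.6, 28.1 and 26.3 in RBFOX2 KD, and in K562 was listed in both Control libraries (10.0 and 1.46) and in neither KD library. Opposite-strand values were lower in K562 RBFOX2 KD than in K562 Control without overlap for *JUND* and *EGR1*, as for 14.2% of 4394 genes. *IER2* had opposite-strand peaks in 13 libraries, at percentile 7.94 to 55.1. In each library the highest-ranked of them had its summit in the upstream window or within the first 308 bases of the gene, and *STX10* begins on that strand just upstream. Lower-ranked peaks were listed in intron 1 (K562 WT 1) and opposite exon 2 (NB4 Control 2 and 3), the latter under a lncRNA annotated on that strand (ENSG00000267598.1, chromosome 19, 13153071 to 13154193). Whether RNA of the opposite strand or reads assigned to the wrong strand gave these peaks was not tested.

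**Figure D5:**
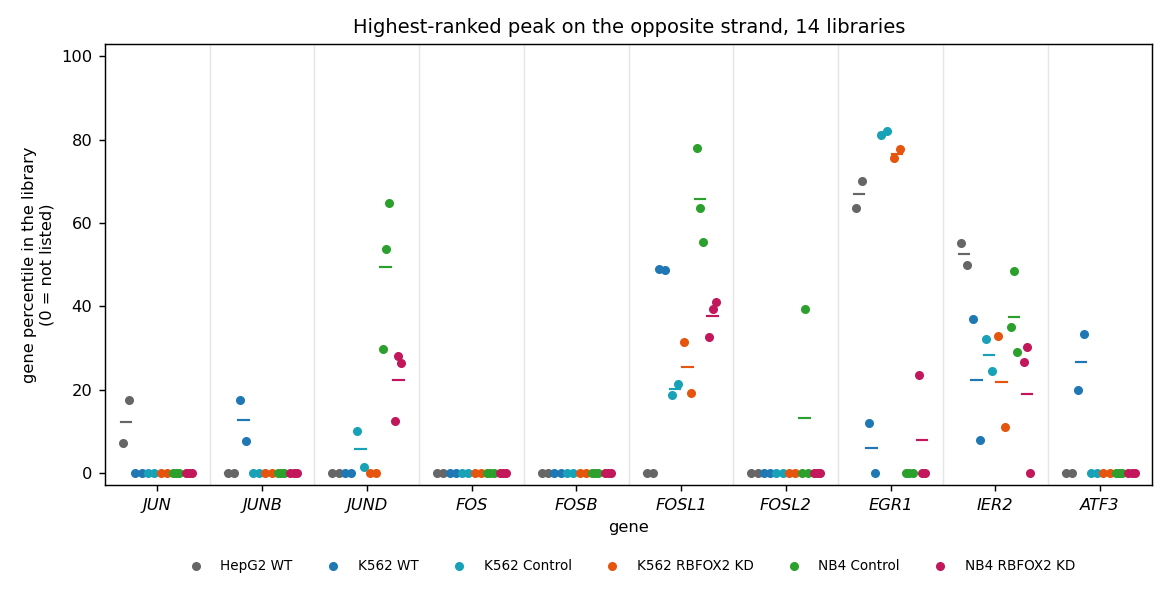
Percentile of the highest-ranked peak on the strand opposite to the gene (y axis, 0 where none was listed) for the 10 genes (x axis) in each library, coloured by group, with a bar at the group mean. *EGR1* is highest in the K562 hairpin libraries, at 75.6 to 82.2, *FOSL1* is highest in NB4 Control, at 55.5 to 78.0, and *FOS* and *FOSB* stay at 0.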

How the data were processed

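Deposited m6A peak lists of 14 immunoprecipitated caRNA libraries were used, and the 14 input libraries were not analysed here. Per the methods and the submitters' processing notes, RNA was depleted of rRNA, m6A-containing fragments were enriched with an antibody kit and libraries were made with a stranded kit. Reads were trimmed with Trimmomatic 0.39, aligned to hg38 with HISAT2 2.1.0 and GENCODE 29, split by strand with SAMtools 1.9, and peaks were called with MACS2 for each library and strand with reads extended to 150 bases. Whether the input served as background was not stated. In the deposited lists the score, the fold (a ratio of the summit to its local background), the −log10 p-value and the −log10 q-value are the authors' own MACS2 output. They are not counts, so no count model was fitted.

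The 10 genes and the lists of related genes were chosen with earlier results of these data known, and the marker genes of the lines after these data had been seen. Peaks were joined to genes and transcripts of GENCODE 44. Depth (effective reads) and summit pileups were recovered by solving the MACS2 fold and Poisson p-value at each summit. The pileup came out whole (within 0.02) at 100% of summits in 11 libraries, and in the others (HepG2 WT 1 and 2 and NB4 Control 3) rescaled reads were assumed. Summits within 60 bases were joined into 1 position. Distances from the stop codon run along the canonical transcript and count from the first base of the stop codon as 0.

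Groups were compared by exact permutation tests (two-sided) on the gene percentile, with labels permuted within lines for both lines together and Benjamini-Hochberg adjustment over all genes tested. A gene was tested if it was listed in any library of the comparison. Ranges apart means that no library of one group lay within the range of the other. Shares over all genes for the opposite strand used the same windows and were computed after the members' values were known. Of each list of related genes, up to 3 were to be named, those with ranges apart in both lines in the same direction and the largest mean change. The code was tested on simulated data. Python 3.11.15, NumPy 2.4.6, pandas 2.3.3, SciPy 1.17.1 and Matplotlib 3.10.9 were used.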

Additional observations from a re-analysis of the deposited data

How the results depend on the processing

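The median change over the 10 genes was computed again under other settings for each of the 6 comparisons. Only peaks with −log10 q of at least 5, only summits inside the gene window, no upstream window and depth matching each left it close to its value. Leaving out 1 library at a time gave -9.76 to -0.822 points for KD in K562, -2.12 to 0.183 in NB4, -7.33 to -1.25 over both lines, 6.31 to 10.2 for K562 WT against HepG2 WT, -2.11 to 2.38 for NB4 Control against K562 Control and -1.21 to 0.223 for K562 Control against K562 WT, so the sign of 3 of these medians depends on single libraries. With the log2 fold in place of the percentile 2 differences with ranges apart changed direction. *FOSL2* was then higher in K562 WT than in HepG2 WT, by 0.75 on the log2 scale, and *JUNB* higher in K562 Control than in K562 WT, by 0.18. Fold and rank weigh the local background differently, and the cause was not tested. The number of genes with ranges apart moved with single libraries, from 2 to as many as 8 in K562 without RBFOX2 KD 1 and from 0 to as many as 4 in NB4 without RBFOX2 KD 3, partly because smaller groups overlap less.

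Same-numbered KD and Control libraries showed no positive correlation of their deviations from the group mean. The values were -0.0712 in K562 and -0.0594, -0.0758 and -0.173 in NB4. With 2 libraries a group the deviations mirror each other, and in NB4 they sum to 0 within a group. These values therefore cannot show whether libraries were prepared in pairs. A replicate block cannot move the changes (medians of -6.58, -0.953 and -4.96 points), because paired differences average to the difference of group means. With the block *JUND* had p = 0.0625 by an exact permutation within the 5 pairs, which can give no smaller value. The lists give no depth per site, and 2 or 3 libraries a group limit every comparison within a line.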
